A study of Mus musculus with 2 samples.

Results

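The 38 Hox genes described here belong to the 4 mouse Hox clusters, Hoxa, Hoxb, Hoxc and Hoxd, and were taken by gene symbol. Of these, 33 had at least 1 probe set listed for that gene alone, out of 18193 genes with such a probe set on the array, and the brightest probe set stood for each gene. Messenger RNA had been measured on 2 Affymetrix Mouse Genome 430 2.0 arrays, each hybridised with RNA of chondrocytes, the cartilage-forming cells, cultured from the ribs of mice aged 5 days. One array held wild-type cells and the other cells of a miR-140 knockout (label: microRNA-140 depletion), and the strain label of both named C57BL/6 and CBA. How many animals went into each culture, and whether their cells were pooled, is not stated in the sources used here. With 1 array per group there is no spread between cultures and no test, so each difference below is the knockout minus the wild-type log2 signal of this pair of arrays.

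Hox genes encode homeodomain transcription factors that give the body axis its regional identity. Within a cluster they are numbered from the end expressed earliest and farthest forward, and genes with the same number in different clusters form a paralogue group. In the vertebral column the combination present at each level sets what a segment becomes: genes of group 6 promote ribs, genes of group 10 suppress them in the lumbar region, and genes of group 9 help decide which ribs join the sternum. Cells of the skeleton often keep part of this code after development.

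Signal was called detected at a log2 value of 7 or more in either array. The detected genes were Hoxa2, Hoxa3, Hoxa5, Hoxa7 and Hoxa9 of the Hoxa cluster and Hoxc4, Hoxc5, Hoxc6, Hoxc8 and Hoxc9 of the Hoxc cluster. These 10 of 33 measured Hox genes (30.3%) compare with 54.4% of all genes on the array. All 10 were detected in both arrays, as were 95.0% of all genes detected in either. Each paralogue group from 2 to 9 had 1 or 2 detected members, and groups 1, 10, 11, 12 and 13 had none. The count depends on the level chosen: a level of 6 gave 16 genes, with 3 of the Hoxb cluster, 1 of the Hoxd cluster and Hoxa11 among them, and a level of 8 gave 6. In whole cultures, fewer cells with a transcript and less of it per cell cannot be told apart, and probe sets bind with different strength, so a signal under 7 does not show that a gene is silent and signals of different genes are not ranked.

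**Figure D1:**
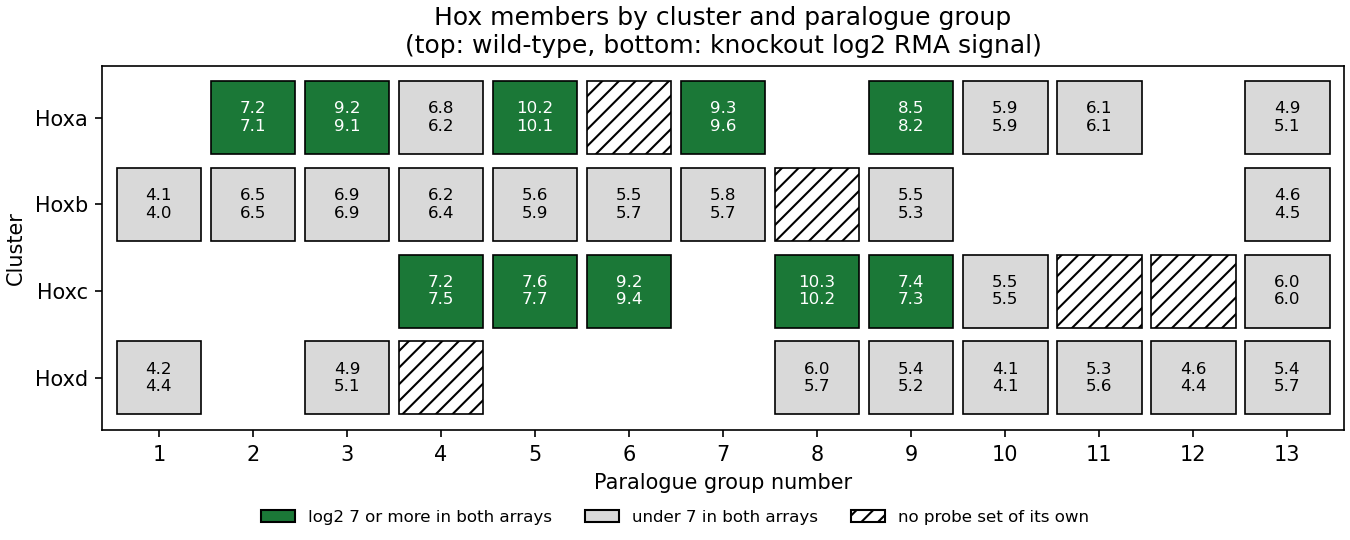
The 38 Hox genes are laid out by cluster (rows) and paralogue group number (columns), with the wild-type log2 signal above the knockout log2 signal in each box; green marks 7 or more in both arrays, grey marks under 7 in both, and hatching marks genes without a probe set of their own. Places without a box hold none of the 38 genes. Green boxes lie in the Hoxa and Hoxc rows between groups 2 and 9.

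The cluster order in the RefSeq annotation of GRCm38.p6 places a microRNA gene where detection at a level of 7 ended in the Hoxa and Hoxc clusters. Mir196b lies between Hoxa9 and Hoxa10, and Mir196a-2 lies between Hoxc9 and Hoxc10. This border depends on the level chosen. A level of 6 added Hoxa11, beyond Mir196b, and a level of 8 left out Hoxc9, so that detection in the Hoxc cluster ended at Hoxc8. A further copy, Mir196a-1, lies between Hoxb9 and Hoxb13, in a cluster where none of the 38 Hox genes was detected. The miR-196 family is known to repress Hox messenger RNAs, Hoxc8, Hoxa7 and Hoxb8 among them. The array holds no measurement of these microRNAs. Their mature 5p strands, from RefSeq with the GRCm38.p6 build, are shown because they mark that border, with miR-10 strands from the Hoxb and Hoxd clusters and the 3p strand of the deleted miR-140 for comparison. Capitals mark the seed, bases 2 to 8, which pairs with targets.
miR-196b-5p: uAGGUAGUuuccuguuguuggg
miR-196a-5p: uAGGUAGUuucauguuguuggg
miR-10a-5p: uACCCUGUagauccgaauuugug
miR-10b-5p: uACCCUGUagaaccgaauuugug
miR-140-3p: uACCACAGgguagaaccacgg
They lie at chr6:52230129-52230150 on the minus strand for miR-196b-5p, and on the plus strand at chr11:96265187-96265208 and chr15:102973365-102973386 for the 2 copies of miR-196a-5p, chr11:96317186-96317208 for miR-10a-5p, chr2:74726074-74726096 for miR-10b-5p and chr8:107551288-107551308 for miR-140-3p. The miR-196 strands share the seed AGGUAGU and the miR-10 strands share ACCCUGU. The miR-140-3p seed, ACCACAG, is neither of these, and the 5p strand of miR-140 was not compared.

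The promoters of Hoxa9 and Hoxa10 are shown because these neighbours lie on either side of the border that a level of 7 gave in the Hoxa cluster. Each runs from 250 bases before to 50 after a gene start in RefSeq (GRCm38.p6, minus strand), at chr6:52227321-52227620 for Hoxa9 and at chr6:52240805-52241104 for the first of 2 listed starts of Hoxa10. Capitals mark CG dinucleotides.
Hoxa9: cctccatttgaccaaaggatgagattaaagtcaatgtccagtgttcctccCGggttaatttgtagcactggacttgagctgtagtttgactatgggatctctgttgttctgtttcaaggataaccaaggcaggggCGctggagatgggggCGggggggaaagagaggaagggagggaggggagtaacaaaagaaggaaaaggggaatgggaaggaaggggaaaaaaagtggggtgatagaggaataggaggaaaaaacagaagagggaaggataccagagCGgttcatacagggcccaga
Hoxa10: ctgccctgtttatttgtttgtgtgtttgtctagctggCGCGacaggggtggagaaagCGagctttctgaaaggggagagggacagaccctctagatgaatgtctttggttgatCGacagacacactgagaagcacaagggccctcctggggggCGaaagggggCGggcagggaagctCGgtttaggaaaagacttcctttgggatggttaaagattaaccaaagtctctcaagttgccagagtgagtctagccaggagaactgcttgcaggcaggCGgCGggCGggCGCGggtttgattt
The Hoxa9 window holds 4 CG dinucleotides, 0.28 of the number its base composition predicts, and the Hoxa10 window holds 12, a ratio of 0.60. Across the 22 Hox genes with a promoter in the table the median ratio was 0.59, against 0.38 for all 32851 promoters listed. It was 0.50 for the 6 detected genes among them (range 0.28 to 1.02) and 0.60 for the 13 genes under 7 (range 0.26 to 0.92), so the ranges overlapped. The 6 were the detected Hoxa genes and Hoxc4, the only Hoxc gene with a promoter listed, while most of the 13 were Hoxd genes. Detection and cluster were thus not separated in this comparison. Motifs were searched on both strands of windows of 300 bases. The joint PBX and HOX motif TGATTNAT was in 1 of the 22 Hox promoters (4.55%), that of Hoxa2, and in 3.22% of all promoters. TAATTA, a HOX core, was in 1 (Hoxd11, 4.55%) against 5.29% of all. TTTATG, bound by CDX factors, was in 5 (22.7%) against 11.9%. Each Hox gene gave its first listed start only, whereas the set of all promoters holds every listed start. A match describes these letters only.

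The Hoxa genes of low number were present on both arrays. Hoxa2, which holds back cartilage and bone formation in the embryonic second branchial arch, read 7.19 in wild-type and 7.07 in knockout cells, a difference of -0.13 just above the detection level. Hoxa3, which patterns the neck and throat, read 9.17 and 9.07 (-0.10). Hoxa5, which patterns the border of neck and thorax, read 10.17 and 10.15 (-0.02). By the brightest probe sets the arrays thus lay within 0.13 of each other for these 3 genes. All were on the lower side in the knockout, although Hoxa5 turned to 0.01 after lowess centring. Hoxa4 lay just outside detection, at 6.75 and 6.24. Its difference of -0.51 was the farthest from 0 of all 33 measured Hox genes, but both signals are close to background, where RMA values are least informative.

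By their brightest probe sets, the thoracic Hoxa genes stood farther apart. This contrast depends on the probe set, since others that reached 7 differed by -0.29 for Hoxa3 and -0.23 for Hoxa5. Both of these are of kinds that may bind other transcripts, and the Hoxa3 one reached 7 in wild-type cells only (7.12 and 6.83). Hoxa7, which acts in the upper thoracic region, read 9.27 in wild-type and 9.57 in knockout cells, a difference of 0.30 (1.23-fold higher) that was the largest in size among detected Hox genes. Hoxa9, which takes part in patterning the sternal and floating ribs, read 8.47 and 8.20 by its brightest probe set (-0.27). Its other probe set read 7.95 and 8.26 (0.31), the opposite direction and a like size, and the mean of both differed by 0.02. No direction is therefore given for Hoxa9. Beyond it the cluster fell under 7: Hoxa10, the rib-suppressing member, read 5.89 and 5.93, Hoxa11 read 6.07 and 6.10, and Hoxa13, which patterns the ends of limbs and tail, read 4.91 and 5.07.

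In the Hoxc cluster the detected genes formed an unbroken run from its low-numbered end. Hoxc4 read 7.19 in wild-type and 7.46 in knockout cells (0.27), near the detection level. Hoxc5 read 7.55 and 7.72 (0.17), and its 2 other probe sets, both under 7, differed by 0.14 and 0.16. Hoxc6, a member of the group that promotes ribs, read 9.22 and 9.45 (0.23, 1.17-fold higher). The probe set used for Hoxc6 is of a kind that may bind other transcripts, but a second one, at 9.19 and 9.41, differed by 0.22. These 3 genes all stood slightly higher in the knockout array.

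Hoxc8 and Hoxc9 were nearly level between the arrays. Hoxc8, whose loss in mice gives the first lumbar vertebra a pair of ribs, read 10.27 in wild-type and 10.20 in knockout cells (-0.07). Hoxc9 read 7.40 and 7.33 (-0.08). Hoxc10, next along the cluster, read 5.50 and 5.48, and Hoxc13, known for its part in hair and nails, read 5.97 and 5.95. Both clusters therefore gave signal in group 9 and none above 7 in the group 10 genes on either array.

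**Figure D2:**
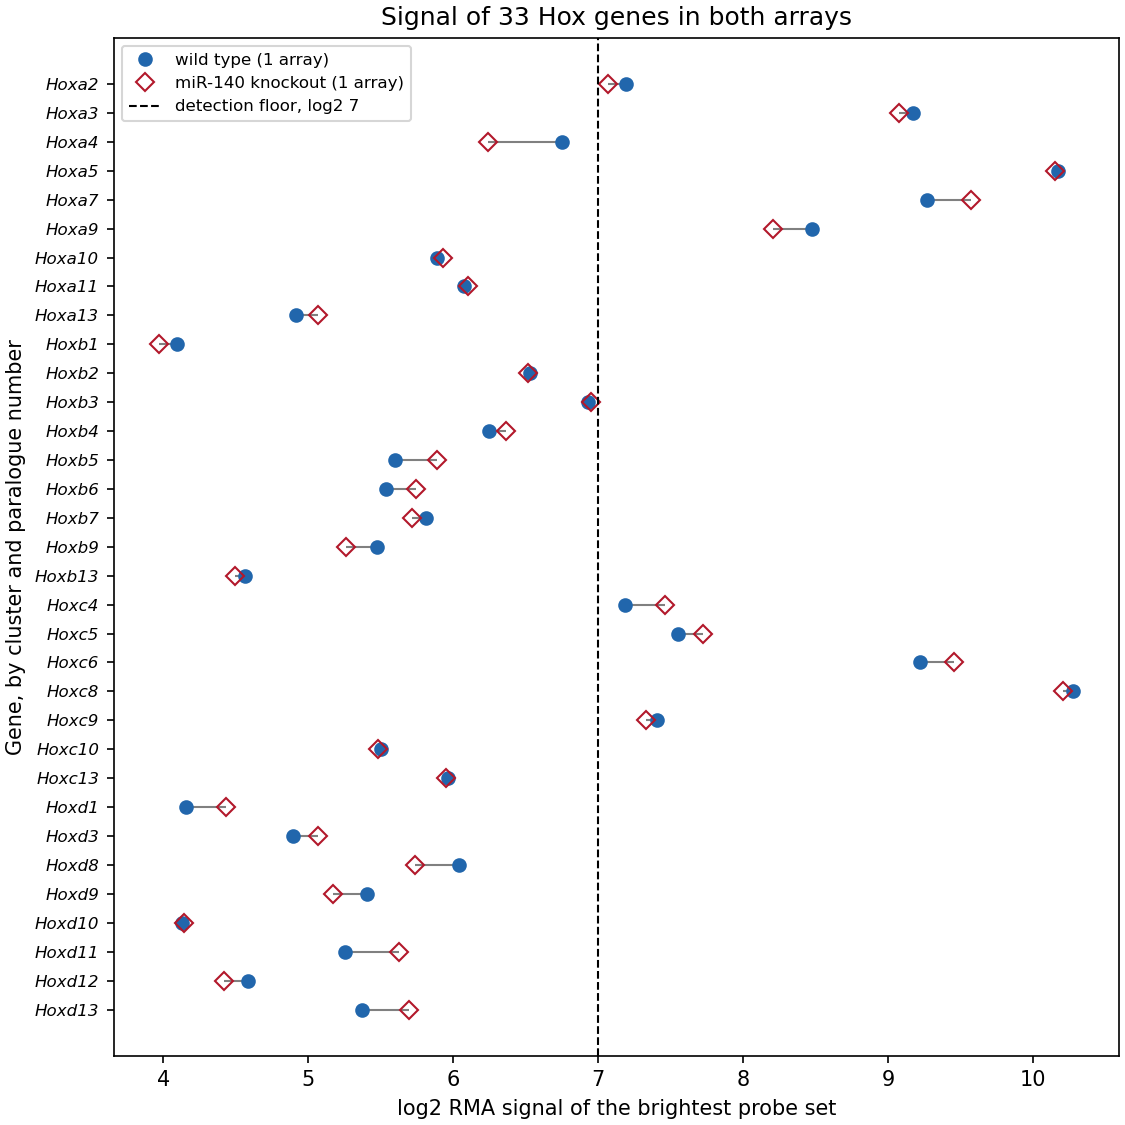
Log2 RMA signal of the brightest probe set (horizontal axis) for each of 33 Hox genes, ordered by cluster and paralogue number, with filled circles for the wild-type array, open diamonds for the knockout array and a dashed line at the detection level of 7. Circle and diamond of a gene lie close together throughout, the widest difference being -0.51 for Hoxa4, under the line.

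No gene of the Hoxb cluster reached 7. Hoxb2 read 6.53 in wild-type and 6.51 in knockout cells, Hoxb3 6.93 and 6.95 and Hoxb4 6.25 and 6.36. Hoxb3 lies just outside the threshold, as Hoxa2 and Hoxc4 lie just inside it. The measured Hoxb genes of groups 5 to 9 stayed under 6 on both arrays. Hoxb5 read 5.60 and 5.89, Hoxb6 5.54 and 5.74, Hoxb7 5.81 and 5.71 and Hoxb9 5.47 and 5.26. Hoxb1, a hindbrain gene, read 4.09 and 3.97, and Hoxb13, active in the tail and prostate, read 4.57 and 4.49.

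The Hoxd cluster, best known for patterning limbs and digits in its high-numbered part, also stayed under 7 in both arrays. Hoxd8 read 6.04 and 5.74, and Hoxd9 read 5.41 and 5.17. Hoxd11 read 5.25 and 5.62 and Hoxd13, the digit gene, 5.37 and 5.69. Hoxd10 (4.13 and 4.14), Hoxd12 (4.59 and 4.42), Hoxd3 (4.89 and 5.07) and Hoxd1 (4.16 and 4.43) lay at most at 5.07. The 8 measured Hoxd genes spanned 4.13 to 6.04. Across the 10 measured genes of groups 10 to 13 in all clusters the signal spanned 4.13 to 6.10. Between the arrays the 23 Hox genes under 7 differed by -0.51 to 0.37, at signal levels where differences carry little information.

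Genes without a probe set of their own complete the 38. For Hoxa6, Hoxc11 and Hoxc12 no probe set was named here. Hoxb8 shares 1 probe set with Hoxb7, which read 5.99 in wild-type and 6.58 in knockout cells (0.59), and Hoxd4 shares 2 with Hoxd3, which read 6.34 and 6.65 and 4.52 and 4.27. All 3 shared probe sets lay under 7, and none was assigned to a gene. Groups 4, 6, 8, 11 and 12 thus each lack 1 member: group 4 rests on Hoxa4, Hoxb4 and Hoxc4, group 6 on Hoxb6 and Hoxc6, group 8 on Hoxc8 and Hoxd8, group 11 on Hoxa11 and Hoxd11, and group 12 on Hoxd12 alone.

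The arrays differed by less than 1.5-fold in every detected Hox gene. None of the 10 reached a 2-fold difference, which 1.70% of the 9897 genes detected on either array did, and none reached 1.5-fold, which 5.11% did. Since these shares are low, a count of 0 among 10 genes does not set Hox genes apart. Their differences ran from -0.27 to 0.30, and 19.0% of all genes differed by more than the latter in size. The median Hox difference was -0.05 with 4 of 10 genes higher in the knockout array, and the median of all genes was likewise -0.05 with 40.0% higher. By cluster, 1 of 5 detected Hoxa genes was higher (median -0.10) and 3 of 5 Hoxc genes were (median 0.17), a split for which no test is possible. It counts Hoxa9 as lower by its brightest probe set, although its other probe set was higher.

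**Figure D3:**
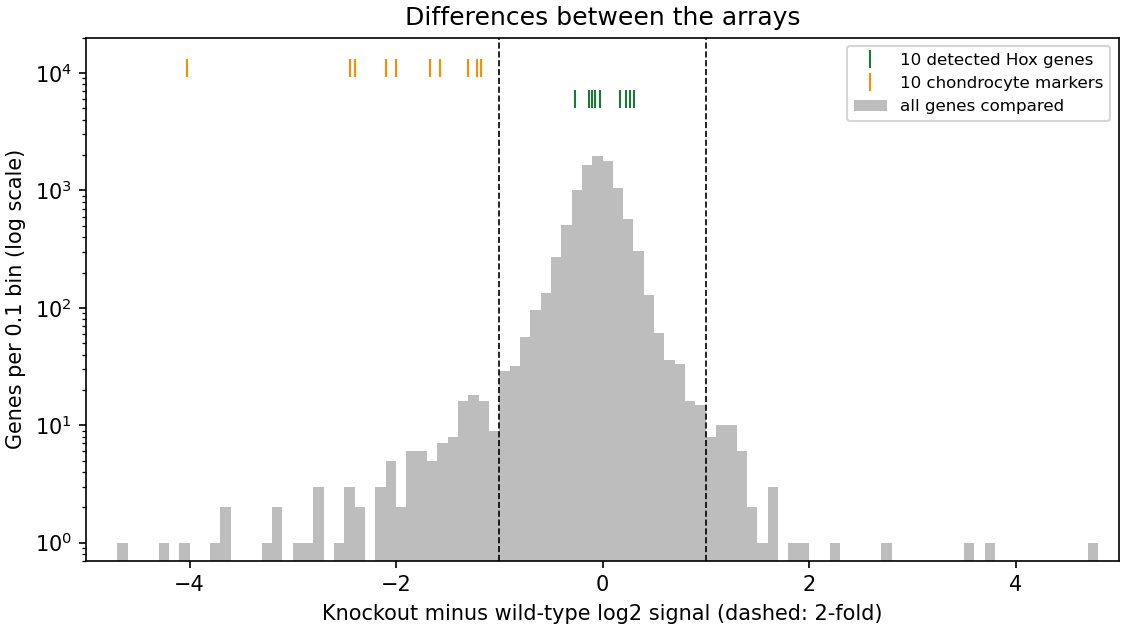
Histogram of the knockout minus wild-type log2 signal of 9897 genes (grey bars, number of genes per bin of 0.1 on a log axis), with ticks above for the 10 detected Hox genes (green) and 10 chondrocyte marker genes (orange) and dashed lines at 2-fold. The Hox ticks lie between -0.27 and 0.30 in the centre of the distribution, and the chondrocyte ticks all lie beyond 2-fold lower.

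Several probe sets of a gene gave a check within each array. The 33 genes had 48 probe sets, of which 14 reached 7, and 5 of the 10 detected genes had more than 1. In Hoxa3 the probe set used read 9.17 and 9.07, another read 7.12 and 6.83 (-0.29), and 2 stayed under 7 with differences of -0.15 and 0.18. For Hoxa5 the other probe set read 9.72 and 9.49 (-0.23, against -0.02 for the one used). Among genes with more than 1 probe set above 7, Hoxa3, Hoxa5 and Hoxc6 kept their sign and Hoxa9 did not. Spread between probe sets of the same gene could thus be as wide as the differences between the arrays. When all probe sets of a gene were averaged, Hoxc5 dropped under 7 and the other 9 genes stayed detected.

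**Figure D4:**
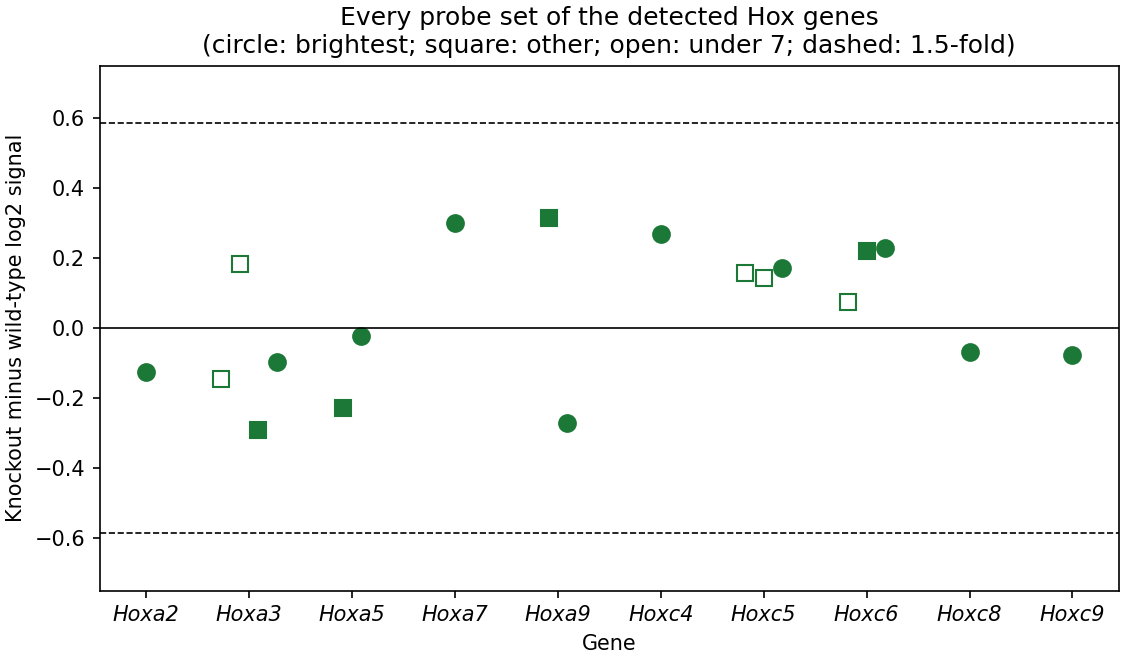
Knockout minus wild-type log2 signal (vertical axis) of every probe set of the 10 detected Hox genes, with circles for the brightest probe set, squares for others, open symbols for those under 7 in both arrays and dashed lines at 1.5-fold. All symbols lie inside the dashed lines, and the 2 Hoxa9 symbols lie on opposite sides of 0, at 0.31 and -0.27.

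The same arrays differed strongly in cartilage genes and in sex-linked genes. All 10 chondrocyte markers were detected in both arrays, and each was at least 2-fold lower in the knockout (median -1.84, from Sox9 at -1.18 to Acan at -4.03). Of 10 fibroblast and perichondrium markers, 9 were detected, 6 higher and 3 lower in the knockout, and 4 were past 1.5-fold: Col3a1 (1.38, 2.60-fold higher), Lum (0.96) and Fbln2 (0.72) were higher and Postn (-1.26, 2.40-fold lower) was lower. Their median difference of 0.13 thus covers a range from -1.26 to 1.38. No osteoblast marker reached 7 of 4 measured, and 1 of 7 muscle, 3 of 6 leukocyte and 1 of 5 endothelial markers did, none above 7.38. Xist read 7.01 in wild-type and 10.60 in knockout cells, and the Y-linked Eif2s3y read 8.86 and 4.18. Wwp2, whose intron holds Mir140, read 9.65 and 7.13 by the probe set of highest mean, and another of its probe sets read 10.35 and 5.85. The part of cell mix and sex in the Hox values was not tested. By their brightest probe sets and the deposited values, the detected Hox genes differed by at most 0.30 beside these markers.

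Lists of genes that act with or around Hox genes were counted in the same way, to be read against all genes on the array, of which 54.4% were detected and, of those detected, 40.0% were higher in the knockout and 5.11% were past 1.5-fold. HOX proteins bind DNA with PBX and MEIS partners, the TALE homeodomain proteins. Of 8 such genes measured, 5 were detected, 2 higher and 3 lower in the knockout (median -0.11) and none past 1.5-fold. Meis2 read 9.43 in wild-type and 9.90 in knockout cells (0.48), and Meis1 7.17 and 7.55 (0.38). Pbx3 read 9.31 and 9.11 (-0.20) and Pbx2 8.64 and 8.50 (-0.14). Both kinds of partner were thus present on both arrays together with the Hoxa and Hoxc transcripts.

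Polycomb proteins keep Hox genes silent outside their domain, and trithorax proteins keep them active. Of 21 Polycomb genes measured, 20 were detected, with 4 higher, 15 lower and 1 equal (median -0.07, against -0.05 for all genes), and none past 1.5-fold. At a share of 5.11% over all genes, that count of 0 does not set the list apart. Suz12, a core subunit of the complex that writes the Polycomb histone mark, read 9.42 and 8.96 (-0.45), Phf1 8.61 and 8.25 (-0.35), Pcgf2 7.14 and 6.83 (-0.31) and Phc2 9.98 and 10.36 (0.39). Of the 9 trithorax and H3K27 demethylase genes measured, all were detected, 5 higher and 4 lower (median 0.02). Kdm6a, a demethylase that removes the Polycomb mark, read 8.26 and 8.69 (0.42), Kmt2b 8.75 and 8.50 (-0.25), Kmt2a 8.17 and 7.94 (-0.23) and Ash2l 8.70 and 8.87 (0.18).

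Regulators that set the Hox code in the embryo include CDX factors, GDF11 and retinoic acid. The list counted here is wider and holds Zbtb7b, for which no such role is claimed. Of its 21 measured genes, 11 were detected, 5 higher and 6 lower (median -0.05, equal to that of all genes). Cyp26b1, which breaks down retinoic acid, was the 1 member past 1.5-fold: it read 8.66 in wild-type and 7.74 in knockout cells (-0.91, 1.88-fold lower). Gmnn (-0.27), Zbtb7b (-0.25) and Rarg, a retinoic acid receptor (-0.23), followed. A second Rarg probe set above 7 differed by 0.09.

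Genes of the sclerotome, the somite compartment that gives rise to ribs, and of other regions were compared for position. Of 15 sclerotome and somite genes measured, 5 were detected, 1 of them higher (median -0.20): Foxc2 read 8.83 and 8.38 (-0.45), Foxc1 10.56 and 10.13 (-0.43), Twist1 7.35 and 7.62 (0.27) and Tcf15 7.09 and 6.89 (-0.20). Of 23 limb and head factors, 6 were detected, and 2 of them were higher (median -0.19). At 5 of 15 and 6 of 23, both lists, like the Hox genes, were detected at a lower share than the 54.4% of all genes. This difference in share was not tested. Prrx2, a factor of limb and facial mesenchyme, was the 1 member past 1.5-fold, at 8.71 and 9.36 (0.65, 1.57-fold higher). Tbx15 stood at -0.45, Msx1 at -0.36 and Alx1 at -0.29.

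**Figure D5:**
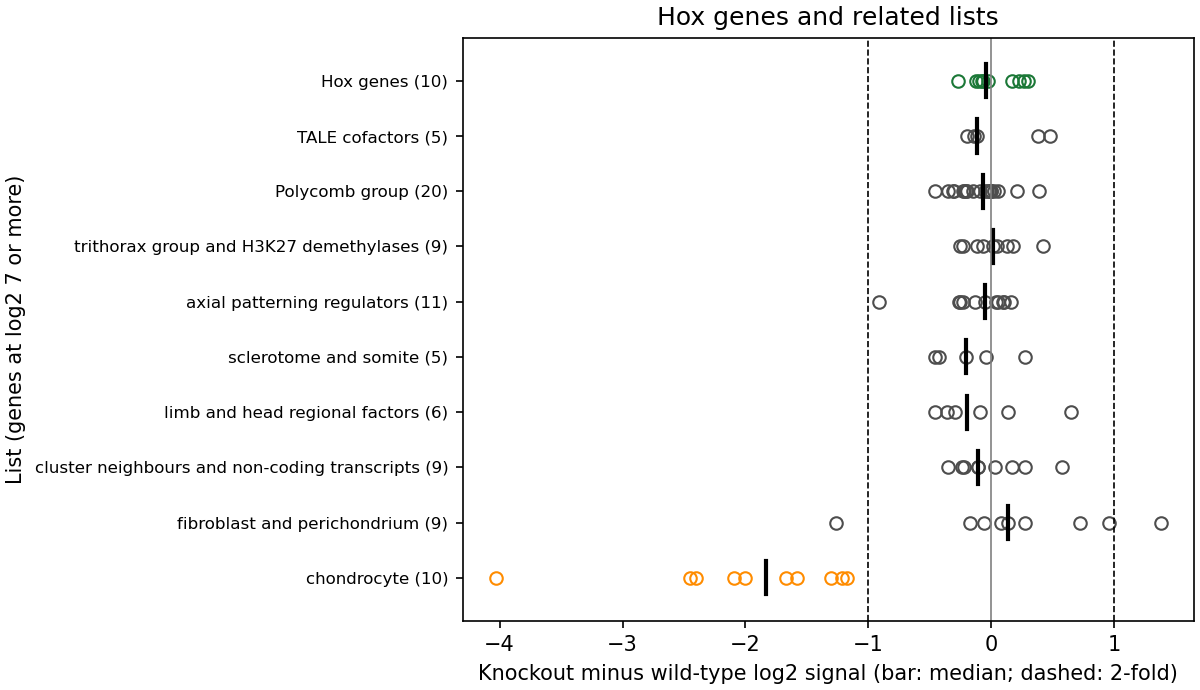
Knockout minus wild-type log2 signal (horizontal axis) of each detected gene (circles) in the Hox family and 9 other lists, with the number of genes in brackets, a bar at each list's median and dashed lines at 2-fold. The Hox median lies at -0.05 and those of 7 Hox-related lists lie between -0.20 and 0.02, whereas the chondrocyte median lies at -1.84.

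Genes outside the clusters give the neighbourhood. The Hoxa cluster is flanked by Skap2, at 10.78 in wild-type and 10.56 in knockout cells (its 2 other probe sets above 7 differed by -0.04 and 0.07), and on its high-numbered side by Evx1, at 6.43 and 6.64. The Hoxc cluster lies between Smug1 (7.72 and 7.75) and Calcoco1 (7.85 and 7.62), both detected. The Hoxb cluster lies between Skap1 (5.40 and 5.37) and Ttll6 (5.17 and 5.34), both under 7, and the Hoxd cluster between Mtx2 (8.85 and 9.13) and Evx2 (6.59 and 6.62). Detection of a flanking gene therefore did not follow detection in the cluster, since Mtx2 was detected beside a Hoxd cluster with none.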

How the data were processed

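Messenger RNA of 1 wild-type and 1 miR-140 knockout culture was compared, grouped by sample title. The deposited values are log2 signals, which the authors summarised by RMA (Robust Multichip Average) in Affymetrix Expression Console 1.1, per the labels' design text and the submitters' processing notes. RMA corrects background, gives the arrays a common distribution and summarises probe sets, so it can remove a shift shared by most genes and compresses dim differences. The log2 scale was read from the values (3.24 to 14.2).

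Of 45101 probe sets, 34945 had 1 symbol in the platform annotation, 932 had several and name no gene, 9160 were not listed and 64 were controls. By Entrez identifier 34741 were found in RefSeq (GRCm38.p6), with 0 changed symbols. The probe set of highest mean stood for each of 18193 genes. All Hox members are reported, and of each of 7 related lists the 4 detected genes with the largest differences at most. Genes flanking the clusters, antisense transcripts, single markers, Wwp2, Xist and Eif2s3y fall outside this rule and were chosen after their values were seen. Marker lists covered 6 cell types. Members and lists were chosen with earlier results of these data known. The number of arrays limits the precision. Alternatives changed the scaling, probe set rule, detection level and fold threshold. The code that counts differences past the fold threshold was checked on simulated data, which does not test the counts reported here. Python 3.11.15, pandas 2.3.3 and statsmodels 0.14.6 were used.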

Additional observations from a re-analysis of the deposited data

How the results depend on the processing

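Of 10 alternatives, those in the detection level moved the counts most, and averaging each gene's probe sets gave 9 Hox genes, 4 of them in the Hoxc cluster, since Hoxc5 fell under 7. With a level of 6, 16 Hox genes were detected, adding 3 of the Hoxb cluster (Hoxb2, Hoxb3 and Hoxb4), 1 of the Hoxd cluster (Hoxd8), Hoxa4 and, as the 1 member of groups 10 to 13, Hoxa11. With a level of 8, 6 were detected, 2 of them in the Hoxc cluster (Hoxc6 and Hoxc8). The same 10 genes were detected under the 3 scalings, with probe sets of 1 transcript and when both arrays had to reach 7. The count past the fold threshold was 0 in every setting run, 1.5-fold included, and the median Hox difference lay between -0.07 and -0.02. Of 85 differences of single genes, 1 moved by more than 0.14, the median absolute deviation over all genes. This was Hoxa9, at 0.02 when its probe sets were averaged. There were 2 changes of sign (Hoxa9 and, by lowess, Hoxa5). Many of the 85 could not move, so this count says little about robustness. Other detection levels, requiring both arrays and raising values under 7 to 7 leave the difference of each listed gene as it was. Median centring shifts all genes alike, and the rule of 1 transcript altered only Hoxc6 (0.23 to 0.22). Averaging gave values for 9 genes and moved 1, and could change only genes with several probe sets. No paired analysis was possible because each group has 1 array. The 2 arrays limit all of these values.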

Other observations

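Among non-coding transcripts of the Hox clusters, Hoxb5os, whose RefSeq gene overlaps Hoxb5 and Hoxb6, read 7.35 in wild-type and 7.92 in knockout cells (0.58, 1.49-fold higher), whereas Hoxb5 and Hoxb6 stayed under 6 on both arrays. The antisense transcripts Hoxa11os (4.96 and 5.10) and Hoxd3os1 (5.30 and 5.33) lay under 7. The list of cluster neighbours and non-coding transcripts had 9 of 16 measured genes detected, 4 higher and 5 lower, with a median of -0.11 and none past 1.5-fold. Cbx5 (-0.36), Mtx2 (0.27) and Calcoco1 (-0.23) followed Hoxb5os in size, but the 2 other Cbx5 probe sets above 7 differed by -0.17 and 0.14.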
